A study of Mus musculus with 46 samples.

Results

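The dorsal raphe nucleus of mice aged P15 was compared with that of mice aged P5 by total gene expression, that is, by the sum of the reads assigned to both parental alleles. All animals were female F1 hybrids of the C57 and CAST strains from reciprocal crosses named F1i and F1r, and the labels give no other genotype or treatment. There were 7 F1i and 7 F1r animals at P15, and 7 F1i and 7 F1r animals at P5. Thus 28 of the 46 samples of the series entered the comparison. The remaining samples were of adults, and their labels do not say whether each came from a separate animal. The tables held 15499 genes, of which 14439 were placed on autosomes by their Ensembl identifiers. The 11724 autosomal genes (81.2%) whose summed counts averaged at least 20 at P15 or at P5 were tested, and 2715 fell below that level and were not. Myelin and axon growth are left aside here except as a background for other functions.

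The dorsal raphe is the midbrain nucleus that holds most of the serotonin neurons projecting to the forebrain. It also contains GABA, glutamate and peptide neurons, astrocytes, oligodendrocytes, microglia and blood vessels. In the early postnatal weeks of rodents, neurons of the brainstem exchange juvenile for mature isoforms of channels, receptors and cytoskeletal proteins. Astrocytes mature over the same period, energy metabolism shifts towards oxidation of glucose, and thyroid hormone rises and acts through local deiodination. The markers that define serotonin neurons, Tph2, Slc6a4 and Fev, had counts in every library of both ages. In such bulk tissue, fewer cells of a type and less RNA per cell cannot be told apart.

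Total summed counts ranged from 3692778 to 8032987 per library at P15 and from 5100560 to 10319139 at P5. The libraries differed by age in a property of the transcripts, their GC content. For each library a GC index was computed as the Spearman correlation, across genes, of GC content with the gene's deviation from its mean over the 28 libraries. It ran from -0.498 to -0.038 at P15, with a median of -0.409, and from 0.304 to 0.463 at P5, with a median of 0.388. No P15 library reached the range of the P5 libraries. Within P15, 9 libraries had an index below -0.3 and 5 lay above it (F1i replicates 1, 2 and 5 and F1r replicates 1 and 3). Every change below was therefore also estimated after the dependence of each library's counts on GC content had been removed, called the GC correction here. Removing it also removes any true change that follows GC content. Age and the preparation of the libraries cannot be told apart, and the part of GC content in the changes was not tested.

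Across autosomal genes the log2 change from P5 to P15 had a Spearman correlation of -0.41 with transcript GC content and of -0.20 with transcript length, as descriptions over 11724 genes that share the same libraries. Genes in the lowest of 10 equal bins of GC content, 31.0 to 41.7%, had a median log2 change of 0.43, and 72.0% of them rose. Genes in the highest bin, 58.0 to 71.1%, had a median of -0.70, and 76.6% of them fell. The medians declined at every step between these ends. The correlation was -0.45 with the 9 P15 libraries of lower index and -0.33 with the other 5. These sets were split by that index, which was negative in every P15 library and positive in every P5 library. A negative correlation in each set, larger in size in the first, therefore follows from the split. On the C57 and CAST alleles, which were read in the same libraries, the correlation was -0.42 each. After the GC correction the medians of the bins lay between -0.04 and 0.03, which follows from how the correction is made. The genes with the shortest and the longest transcripts had medians of 0.50 and -0.32 with it, against 0.33 and -0.21 without it. The correlation with transcript length was -0.35 with the GC correction, so the values corrected for GC content carry a stronger length trend than the uncorrected ones.

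**Figure D1:**
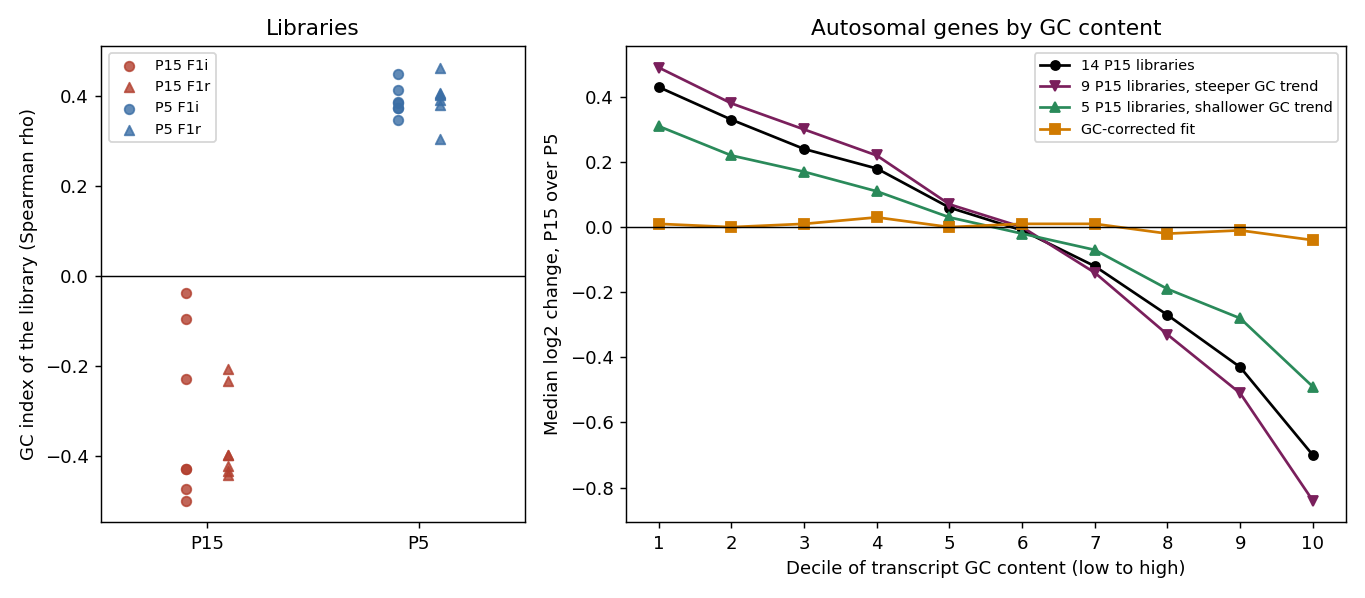
Left, the GC index of each library (Spearman correlation of GC content with the gene's deviation from its mean) for P15 and P5 animals, by cross. Right, the median log2 change (P15 over P5) of autosomal genes by bin of transcript GC content, for all P15 libraries, for the 9 and 5 P15 libraries with the steeper and the shallower trend, and after the GC correction; the uncorrected medians run from 0.43 down to -0.70 and the corrected ones stay between -0.04 and 0.03.

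Most of the measured transcriptome differed between the ages. At an adjusted p of 0.05 (edgeR quasi-likelihood test with cross as covariate, Benjamini-Hochberg adjustment), 5133 genes rose at P15 (43.8% of those tested) and 5014 fell (42.8%), so that 86.5% were called in either direction. The median size of the called changes was 0.58 on the log2 scale, and the biological coefficient of variation was 9.61%, so many called changes were small. By 2-fold or more, 906 genes rose (7.73%) and 1224 fell (10.4%). For 5220 genes (44.5%) the 14 P15 animals did not overlap the 14 P5 animals, with 2505 higher (21.4%) and 2715 lower (23.2%) at P15. Against this background a list of genes is of interest only where its share of called genes or its median departs clearly from that of all genes, whose median was 0.01.

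With the GC correction 8232 of the 10147 called genes kept both call and direction, 1372 lost the call and 543 were called in the opposite direction. Those called both ways numbered 4124 that rose (35.2%) and 4108 that fell (35.0%), and these are the second count given for each list below. Of the genes changed by 2-fold or more, 905 of 906 that rose and 1217 of 1224 that fell kept a call in the same direction, while 634 and 699 still changed by 2-fold or more. Fitted by cross, 8724 genes were called in the same direction in F1i and in F1r and 0 in opposite directions. Fitted by allele, 8156 of 10452 genes measurable on both alleles were called in the same direction on C57 and on CAST and 61 in opposite directions.

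Among called genes outside the myelin and axon growth lists, at 10 CPM or more at either age and without overlap of the ages, Etnppl had the largest increase. Etnppl, an ethanolamine phosphate lyase found in astrocytes of the brain, ranged from 73.0 to 118.5 CPM (counts of both alleles per scaled library size; median 92.2) at P15 and from 0 to 1.13 CPM (median 0.565) at P5. All P15 animals lay far above all P5 animals, with a log2 change of 7.26 ± 0.12 (SE; adjusted p = 6.6e-32). Gjb6, the gap junction protein connexin 30 of astrocytes, ranged from 87.9 to 128.4 CPM (median 102.1) at P15 and from 3.81 to 7.11 CPM (median 5.30) at P5, a change of 4.26 ± 0.08. Fam107a, which encodes a stress-responsive protein that binds actin, ranged from 138.9 to 223.2 CPM (median 193.6) at P15 and from 5.24 to 12.35 CPM (median 8.51) at P5. Its change was 4.49 ± 0.09, without overlap of the ages. Cryab, a small heat shock protein also abundant in oligodendrocytes, changed by 3.96 ± 0.07, with 89.6 to 140.8 CPM at P15 and 5.24 to 10.1 CPM at P5.

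Other genes among those with the largest increases were Cdh19, a cadherin of glial cells (5.21 ± 0.16), BC030499 (4.80 ± 0.15), the cytochrome P450 gene Cyp2j12 (4.55 ± 0.21), the deiodinase gene Dio2 (3.96 ± 0.11), Gm20425 (3.93 ± 0.15), the PDZ and LIM domain gene Pdlim2 (3.72 ± 0.10) and the metallothionein gene Mt2 (3.69 ± 0.07). None of the increases named so far moved by more than 1.5 times with the GC correction.

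The largest decreases included genes of adhesion, surface glycosylation and transcription. Cxadr, the coxsackievirus and adenovirus receptor, a cell adhesion protein of the developing nervous system, ranged from 139.4 to 186.7 CPM (median 167.4) at P15 and from 1162 to 1393 CPM (median 1291) at P5. Its log2 change was -2.97 ± 0.04 (adjusted p = 1.9e-33), and all P15 animals lay below all P5 animals. St8sia2, the enzyme that adds polysialic acid to the neural cell adhesion molecule, ranged from 27.5 to 53.0 CPM (median 37.0) at P15 and from 244.1 to 295.9 CPM (median 283.4) at P5, a change of -2.84 ± 0.07. Trim67, a ubiquitin ligase of the nervous system, ranged from 11.8 to 21.5 CPM (median 14.7) at P15 and from 119.1 to 165.2 CPM (median 146.7) at P5, a change of -3.29 ± 0.06. Ablim3, an actin-binding LIM protein, had 37.6 to 71.3 CPM at P15 and 328.6 to 378.7 CPM at P5 (-2.81 ± 0.08).

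Islr2, a membrane protein with leucine-rich repeats, had the largest decrease, -4.41 ± 0.13, with 1.26 to 5.34 CPM at P15 and 40.4 to 72.1 CPM at P5. It fell by 3.79 with the GC correction, a difference of over 1.5 times. Rtn4r, the Nogo receptor, which restrains axon sprouting, fell by 2.97, and by 2.10 with the GC correction. Bcl7c, a subunit of the BAF chromatin remodelling complex, changed by -2.81 ± 0.10. Fam171a2 (-2.81 ± 0.11) and Prrt4 (-2.79 ± 0.08) had smaller decreases of 1.65 and 1.92 with the correction. Cdhr1, a cadherin-related gene (-2.78 ± 0.09), and the transcription factor gene Tfap2b (-2.78 ± 0.19) had decreases of like size. Tfap2b ranged from 1.74 to 8.02 CPM at P15 and from 12.6 to 48.3 CPM at P5, without overlap.

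**Figure D2:**
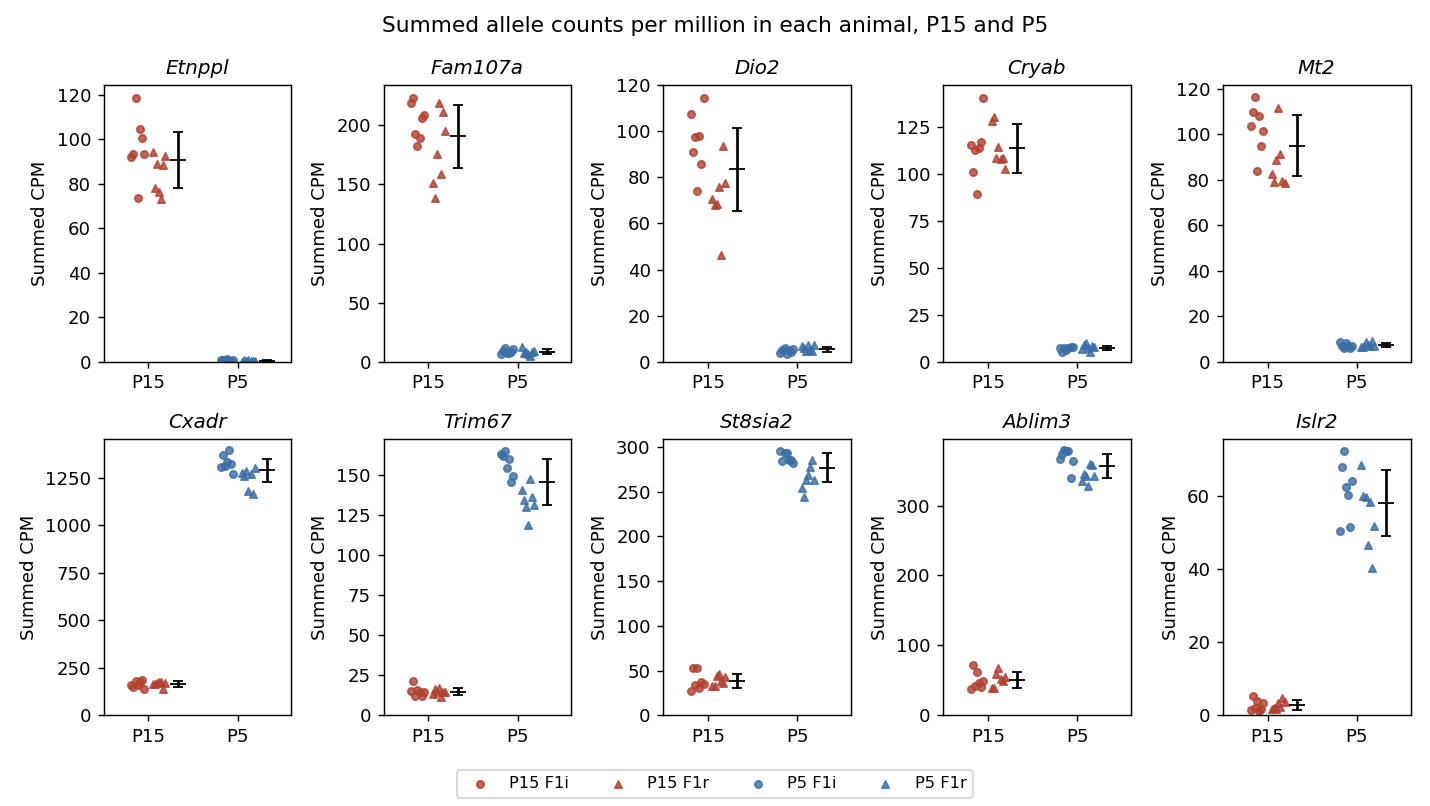
Summed counts scaled to CPM in each of 14 P15 animals (left) and 14 P5 animals (right) for 5 genes that rose and 5 that fell; circles are F1i, triangles are F1r, and black bars show the mean ± SD of each age. In every panel the ages do not overlap, as for Etnppl with 73.0 to 118.5 CPM at P15 and at most 1.13 CPM at P5.

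Genes of the respiratory chain rose almost without exception. Of 33 nuclear genes for subunits of the respiratory chain and ATP synthase, 31 rose and 0 fell, and the same 31 rose with the GC correction. Their median log2 change was 0.84, and 0.81 with the correction. The other 2, Cox6c and Atp5d, had values of -0.08 ± 0.05 and 0.01 ± 0.06, and were called with the correction at -0.23 and 0.64. When length was corrected together with GC content, the median of the list was 0.45. Ndufs4, an accessory subunit of complex I, had the largest change, 2.90 ± 0.14, with mean levels of 43.6 CPM at P15 and 5.78 CPM at P5. For the remaining genes called, the changes lay between 0.10 ± 0.04 (Uqcrc1, complex III) and 1.501 ± 0.09 (Atp5h, ATP synthase).

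In the citric acid cycle list, which includes shuttle enzymes, 17 of 25 genes rose and 4 fell (16 and 4 with the GC correction; median 0.40). Sdha, the catalytic subunit of succinate dehydrogenase, ranged from 867.2 to 1138 CPM at P15 and from 407.3 to 473.5 CPM at P5, without overlap (1.27 ± 0.04). Mdh1, the cytosolic malate dehydrogenase of the malate-aspartate shuttle, changed by 1.46 ± 0.04 and its partner Got1 by 1.23 ± 0.05. The members that fell were Idh1 (-0.46 ± 0.04) and Me1 (-0.44 ± 0.04), which make cytosolic NADPH, the mitochondrial malic enzyme gene Me3 (-0.31 ± 0.05) and the citrate synthase gene Cs (-0.37 ± 0.04).

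Glycolytic genes were divided. Of 25 tested, 16 rose and 8 fell (16 and 6 with the GC correction; median 0.57). Pygm, a glycogen phosphorylase of muscle and astrocytes, ranged from 58.0 to 84.6 CPM at P15 and from 7.41 to 11.1 CPM at P5 (2.92 ± 0.06). Aldoc, the aldolase of astrocytes, changed by 1.71 ± 0.03, and Ldhb, the lactate dehydrogenase subunit that favours lactate use, by 1.24 ± 0.04. Hexokinase genes went the other way, with Hk1 at -0.82 ± 0.11 and Hk2 at -0.97 ± 0.08. The phosphofructokinase isoforms diverged, with Pfkm, the muscle type, at 0.85 ± 0.03 and Pfkp, the platelet type, at -0.88 ± 0.04. Slc2a1, the glucose transporter of the blood-brain barrier and astrocytes, changed by 1.35 ± 0.05. Gapdh gave the largest value of the list (3.67 ± 0.14), but 3.95 on the C57 and 0.70 on the CAST allele, and it has many processed copies, so its size is uncertain.

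Cholesterol synthesis, which supplies growing membranes, did not follow the myelin genes. Of 19 genes of the pathway and its regulators, 8 rose and 10 fell (6 and 10 with the GC correction; median -0.30). Srebf2, the transcription factor that induces the pathway, changed by -1.17 ± 0.10, and the mevalonate kinase gene Mvk by -1.03 ± 0.04. Msmo1 (0.52 ± 0.05) and Sc5d (0.45 ± 0.04), enzymes of late steps, rose. All 16 myelin genes tested rose, with a median of 2.95, and their summed level ranged from 19538 to 34898 CPM at P15 and from 2076 to 3376 CPM at P5.

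Genes that handle metals and oxidants were raised at P15. Of 23 tested, 16 rose and 3 fell (16 and 2 with the GC correction), and the median was 0.77, or 0.54 with the correction. The metallothioneins, small proteins that bind zinc and copper, led the list together with the transferrin gene Trf, which is also a gene of oligodendrocytes (3.99 ± 0.11). Mt2 ranged from 78.7 to 116.3 CPM (median 93.1) at P15 and from 6.13 to 9.15 CPM (median 6.99) at P5. Mt1 ranged from 413.9 to 691.1 CPM (median 499.8) at P15 and from 56.6 to 70.5 CPM (median 61.9) at P5, a change of 3.06 ± 0.06. Both genes separated the ages fully. Mt3, the form enriched in the brain, changed less, by 1.85 ± 0.06 (2.71 with the GC correction).

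Transcription of metallothionein genes is induced by zinc through the factor Mtf1, which binds metal response elements with the core TGCACNC or TGCGCNC. The 250 bases before the RefSeq starts of Mt1 and Mt2 (GRCm38.p6, with both strands searched) are shown with each core in capitals. These neighbouring genes on chromosome 8 both rose without overlap of the ages, though by different amounts.
Mt1 (chr8:94178839-94179088, plus strand): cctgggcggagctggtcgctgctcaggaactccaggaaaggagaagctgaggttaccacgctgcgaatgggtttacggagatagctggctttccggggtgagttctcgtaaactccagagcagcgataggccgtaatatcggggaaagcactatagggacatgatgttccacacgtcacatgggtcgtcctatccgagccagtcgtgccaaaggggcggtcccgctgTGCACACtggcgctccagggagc
Mt2 (chr8:94172368-94172617, plus strand): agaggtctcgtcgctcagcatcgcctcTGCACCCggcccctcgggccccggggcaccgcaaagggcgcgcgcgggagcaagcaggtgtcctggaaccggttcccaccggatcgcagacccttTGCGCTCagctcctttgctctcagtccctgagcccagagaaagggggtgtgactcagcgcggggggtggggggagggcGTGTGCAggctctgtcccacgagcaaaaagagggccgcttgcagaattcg
The core occurred 1 time before Mt1, as in 21.3% of 27018 promoters with at least 1, and 3 times before Mt2, which 1.28% of promoters reach. The window before Mt3 held 0 matches. Bases past the RefSeq start were not searched, so these counts may not give all the cores near Mt1, Mt2 or Mt3. Such matches describe the letters in these windows and not the binding of a factor.

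Among antioxidant enzymes, Gsta4, a glutathione transferase for lipid peroxidation products, changed by 2.74 ± 0.09, Prdx6 by 1.56 ± 0.09, the mitochondrial superoxide dismutase gene Sod2 by 1.07 ± 0.06 and the cytosolic Sod1 by 0.79 ± 0.05. Ftl1, the light chain of the iron store ferritin, fell by 1.52. Its low level, 4.69 CPM at P15 and 13.6 CPM at P5 on average, belongs to a gene with many copies, so it is uncertain.

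Genes of protein folding and turnover rose by smaller amounts. Of 23 chaperone genes, 19 rose and 3 fell (18 and 3 with the GC correction; median 0.55). Besides Cryab, the small heat shock gene Hspb8 (1.95 ± 0.09) and the endoplasmic reticulum chaperone gene Hspa5 (1.35 ± 0.09) had the larger changes, whereas Dnajc5, a chaperone of synaptic vesicles, changed by -0.40 ± 0.03. Of 23 proteasome and ubiquitin genes, 20 rose and 2 fell (18 and 2; median 0.40). Psmb1, a core subunit, changed by 0.93 ± 0.05, and Psmc2, an ATPase of the regulatory particle, by 2.78 ± 0.20. When length was corrected together with GC content, the median of the list was 0.08. Of 21 lysosomal genes, 17 rose and 4 fell (16 and 2; median 0.40, and 0.62 with the GC correction). The cathepsin genes Ctsl (0.89 ± 0.04), Ctsb (0.73 ± 0.03) and Ctsd (0.65 ± 0.04), proteases of the lysosome, rose together, while the lysosomal cation channel gene Mcoln1 changed by -0.79 ± 0.06.

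Genes of thyroid hormone action moved in both directions, as did genes in general (43.8% of all tested higher and 42.8% lower). Dio2, the deiodinase of astrocytes that converts thyroxine into the active hormone, ranged from 46.5 to 114.5 CPM (median 81.6) at P15 and from 3.21 to 7.46 CPM (median 5.10) at P5. Hr, a corepressor gene induced by the hormone, ranged from 32.3 to 85.2 CPM at P15 and from 8.75 to 13.7 CPM at P5. The change of Hr was 2.46 ± 0.12, and 3.25 with the GC correction. Klf9, another hormone-responsive transcription factor gene, changed by 1.97 ± 0.12. The receptor genes diverged, as Thrb changed by 0.87 ± 0.05 and Thra by -0.80 ± 0.08 (-0.15 with the GC correction). Of the whole list of 12, 6 rose and 6 fell (5 and 6 with the correction).

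Clock genes were mostly higher at P15, with 13 of 16 up and 2 down (12 and 1 with the GC correction; median 0.84). The labels used here give no time of day for the collection of tissue. Nr1d2, a nuclear receptor that represses the clock, ranged from 80.2 to 108.6 CPM at P15 and from 27.4 to 33.6 CPM at P5 (1.68 ± 0.05). The factors that bind D-boxes, Dbp, Tef and Hlf, changed by 1.42 ± 0.08, 1.05 ± 0.04 and 0.87 ± 0.07. Dbp reached 2.21 with the GC correction. Per3, a period gene, ranged from 111.7 to 159.9 CPM (median 135.3) at P15 and from 61.9 to 76.2 CPM (median 66.5) at P5 (1.03 ± 0.05), without overlap. Cry1 (-0.52 ± 0.07) and Cry2 (-0.20 ± 0.04; 0.12 with the correction), the cryptochromes, fell, and Arntl had a value of -0.07 ± 0.05.

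The D-box, searched as TTATGTAA or TTATGCAA on both strands, occurred 2 times in the 250 bases before the RefSeq start of Per3, a number that 0.0333% of 27018 promoters reach, while 1.6% hold at least 1. That window is shown with the D-boxes in capitals, since Per3 and the D-box factors rose together. Of the other clock genes searched, Per1 had 1 D-box in 1 of its 2 listed promoters, and Nr1d1, Nr1d2, Dbp, Tef and Hlf had 0.
Per3 (GRCm38.p6, chr4:151044666-151044915, minus strand): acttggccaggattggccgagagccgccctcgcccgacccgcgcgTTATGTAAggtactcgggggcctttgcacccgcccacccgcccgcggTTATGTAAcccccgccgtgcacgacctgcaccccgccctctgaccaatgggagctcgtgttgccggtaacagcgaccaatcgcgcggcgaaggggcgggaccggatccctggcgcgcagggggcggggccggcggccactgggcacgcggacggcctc
The E-box CACGTG, the site of the Clock and Arntl pair, had 0 matches in this window and at least 1 in 6.05% of promoters. It occurred 1 time in 1 of the 2 promoters of Per1 and 1 time in each of the 2 of Tef, and 0 times before Dbp, Hlf, Nr1d1 and Nr1d2. A match is a description of the sequence and does not show a factor's action on the gene.

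Astrocyte genes mostly rose. Of 22 tested, 19 rose and 3 fell, with the same counts with the GC correction, and the median was 1.07. The summed level of the list ranged from 20522 to 24278 CPM at P15 and from 9608 to 10719 CPM at P5. Besides Gjb6, the largest changes were those of the neurotensin receptor gene Ntsr2 (2.95 ± 0.06), the angiotensinogen gene Agt (1.92 ± 0.04) and the protease gene Htra1 (1.90 ± 0.06). The glutamate uptake and recycling genes Slc1a2 (1.48 ± 0.08), Glul (1.80 ± 0.05) and Slc1a3 (0.74 ± 0.04) rose as well. The 3 that fell were Sox9, a transcription factor of glial progenitors and astrocytes (-0.84 ± 0.08), the folate enzyme gene Aldh1l1 (-0.76 ± 0.03) and the GABA transporter gene Slc6a11 (-0.52 ± 0.09).

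Among microglial and complement genes 16 of 20 rose and 3 fell (16 and 2 with the GC correction; median 0.72). The summed level was 819 to 1021 CPM at P15 and 505 to 654 CPM at P5. C3, the central complement component, ranged from 20.9 to 53.5 CPM at P15 and from 4.83 to 11.97 CPM at P5 (2.45 ± 0.11). Tmem119, a marker of mature microglia, changed by 1.91 ± 0.08 (2.51 with the GC correction), and the C1q genes C1qa and C1qb by 1.35 ± 0.06 (2.002 with the correction) and 1.21 ± 0.05. The receptors Cx3cr1 and Csf1r, which microglia carry at all ages, had smaller changes of 0.49 ± 0.05 and 0.69 ± 0.03. Of 11 genes of antigen presentation and interferon response 9 rose and 2 fell (8 and 1 with the correction; median 0.76), with B2m, the light chain of class I molecules, at 1.17 ± 0.04 and the peptide transporter gene Tap1 at -1.74 ± 0.11.

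In the vascular list, 12 of 21 genes rose and 9 fell (12 and 7 with the GC correction). Slco1a4, an organic anion carrier of the blood-brain barrier, ranged from 93.0 to 153.0 CPM at P15 and from 17.2 to 27.1 CPM at P5 (2.49 ± 0.07), and the lipid carrier gene Mfsd2a changed by 1.32 ± 0.08. Cdh5, the adhesion protein of endothelial junctions (-1.71 ± 0.13), Pdgfrb, the pericyte receptor (-1.14 ± 0.07), and Slc7a5, a carrier of large amino acids (-1.89 ± 0.11), fell. The summed level of the list overlapped between the ages, with 1009 to 1450 CPM at P15 and 1063 to 1128 CPM at P5.

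Genes of basement membrane and matrix fell in the same animals. Of 26 tested, 4 rose and 19 fell (3 and 17 with the GC correction; median -0.88). Col4a1, a collagen of vascular basement membranes, ranged from 65.0 to 140.7 CPM at P15 and from 213.3 to 244.9 CPM at P5 (-1.36 ± 0.08), and Col4a2 changed by -1.46 ± 0.08 (-0.75 with the correction). Fibronectin, Fn1, changed by -1.64 ± 0.12 and the membrane metalloprotease gene Mmp14 by -2.08 ± 0.09. Sparc, a matrix protein of astrocytes, was the clear exception at 1.78 ± 0.04. Genes of meninges and fibroblasts behaved otherwise, with 4 of 8 higher and 2 lower (4 and 1). Apod (3.68 ± 0.11), Mgp (3.61 ± 0.18) and Dcn (2.05 ± 0.09), genes of this list that encode secreted proteins, rose without overlap. The prostaglandin synthase gene Ptgds ranged from 25.1 to 465.9 CPM at P15 and from 1.91 to 28.5 CPM at P5. F1r replicate 3 holds its highest value. The change was 3.14 ± 0.45 with all P15 libraries and 2.34 with the 9 of lower GC index. Those 9 leave out other P15 libraries besides that replicate, so its own part in the change was not measured.

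Genes of the extracellular net around neurons mostly fell. Of 15 genes of proteoglycans, link proteins and their enzymes, among them also the chromatin gene Phf1 (-1.22 ± 0.08), 3 rose and 10 fell (3 and 9 with the GC correction). The median was -0.63, and -0.37 with the GC correction and -0.13 when length was corrected too. Ncan, the juvenile proteoglycan neurocan, ranged from 136.4 to 332.1 CPM at P15 and from 915.1 to 1074 CPM at P5 (-2.18 ± 0.11). The link protein genes Hapln1 (1.83 ± 0.13), Hapln2 (2.16 ± 0.12) and Hapln4 (1.07 ± 0.10), whose products fix hyaluronan to proteoglycans in mature nets and at nodes of Ranvier, were the 3 that rose. Bcan, brevican, had values of -0.39 ± 0.08 without and 0.33 with the GC correction, both called.

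Regulators of development fell. Of 32 developmental transcription factor genes, 4 rose and 27 fell (2 and 27 with the GC correction; median -0.76). Lhx1, a homeodomain factor of early neurons, ranged from 0.802 to 3.35 CPM at P15 and from 7.78 to 13.5 CPM at P5 (-2.36 ± 0.13). Sox2, the stem cell factor (-1.19 ± 0.10), Sox12 (-1.38 ± 0.06; -0.70 with the correction), Nfib (-0.92 ± 0.06) and Foxp2 (-1.10 ± 0.10) also fell. The 4 that rose were Id1 (0.86 ± 0.14), an inhibitor of basic helix-loop-helix factors, St18 (0.53 ± 0.10), Sox8 (0.19 ± 0.08) and Tcf4 (0.17 ± 0.04), of which St18 and Tcf4 did not stay higher with the correction.

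Of 28 genes of the Notch, Wnt and Sonic hedgehog pathways, 4 rose and 22 fell (4 and 19 with the GC correction; median -0.84). By role, the receptors Notch1 (-1.23 ± 0.08) and Notch3 (-1.63 ± 0.08; -0.99 with the correction), the ligand gene Jag2 (-1.33 ± 0.07; -0.53 with the correction) and the Wnt ligand gene Wnt7b (-1.48 ± 0.13; -0.85 with the correction) fell. Tcf7l2, a nuclear effector of Wnt signalling, ranged from 8.71 to 23.5 CPM at P15 and from 28.9 to 126.7 CPM at P5 (-2.34 ± 0.16). Hey1, a target of Notch (1.07 ± 0.06), and Gli1, a target of hedgehog signalling (1.22 ± 0.14; 1.82 with the correction), were among the 4 that rose.

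Most called genes of insulin-like growth factors and growth fell, with 4 of 19 genes of the growth list higher and 12 lower (3 and 11 with the GC correction; median -0.60). Igf1, the ligand, ranged from 9.09 to 20.7 CPM at P15 and from 36.6 to 51.8 CPM at P5 (-1.54 ± 0.08). Its receptor gene Igf1r changed by -0.83 ± 0.08. The binding protein genes Igfbp5 (-2.32 ± 0.09), Igfbp4 (-2.19 ± 0.08) and Igfbp2 (-1.80 ± 0.06; -0.96 with the correction) fell, and Igfbp7 rose (0.50 ± 0.08). The imprinted RNA H19 fell by 2.50, with 0.985 to 9.07 CPM at P15 and 9.79 to 48.0 CPM at P5. Dlk1, an imprinted gene of a Notch-like ligand, rose (1.495 ± 0.15).

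Of 16 cell cycle and replication genes, 2 rose and 11 fell (1 and 10 with the GC correction; median -0.36). The helicase subunit genes Mcm5 (-1.72 ± 0.08), Mcm2 (-1.40 ± 0.09) and Mcm3 (-1.35 ± 0.08) fell, at mean levels of 5.82 to 6.68 CPM at P15 and 16.9 to 19.7 CPM at P5. Of 14 precursor genes of oligodendrocytes, 5 rose and 7 fell (5 and 6). Neu4 (2.22 ± 0.04), Enpp6 (1.996 ± 0.07) and Bcas1 (1.67 ± 0.04), which mark newly formed oligodendrocytes, rose, whereas the progenitor genes Pdgfra (-0.42 ± 0.04) and Cspg4 (-1.07 ± 0.10; -0.47 with the correction) fell.

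The counts of chromatin genes were near those of all genes. Of 30 chromatin remodelling and high mobility group genes, 9 rose and 14 fell (6 and 14 with the GC correction; median -0.15). In the BAF complex, the ATPase gene Smarca4 (-1.35 ± 0.08) and the neuronal subunit genes Dpf1 (-1.70 ± 0.06) and Actl6b (-1.10 ± 0.08) fell. The DNA methyltransferase gene Dnmt3a ranged from 205.1 to 340.1 CPM at P15 and from 686.5 to 721.2 CPM at P5 (-1.47 ± 0.06), and Dnmt1 changed by -1.26 ± 0.04. Gadd45a, linked to DNA demethylation and repair, rose (1.49 ± 0.08). Of the 11 genes of DNA methylation, 3 rose and 6 fell (2 and 5).

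Of 36 splicing and RNA processing genes, 10 rose and 23 fell, but only 3 were higher and 21 lower also with the GC correction (median -0.41). Celf5, a neuronal splicing factor, ranged from 46.3 to 91.7 CPM at P15 and from 292.9 to 329.2 CPM at P5 (-2.21 ± 0.07). Elavl3 (-1.41 ± 0.08), Srrm4 (-1.33 ± 0.08) and Nova2 (-1.30 ± 0.08), regulators of neuronal splicing, fell too. Mbnl2, whose product promotes adult splicing patterns, went against them, with 73.8 to 139.9 CPM at P15 and 18.2 to 28.2 CPM at P5 (2.23 ± 0.09). Mbnl1 (1.12 ± 0.11) and Hnrnpc (0.96 ± 0.06) were the other 2 that rose in both fits. Of 7 fetal genes that let-7 targets or that bind RNA, 1 rose and 4 fell (1 and 3), Igf2bp2 among them (-1.49 ± 0.13), while Lin28b had a value of 0.06 ± 0.06 (-0.34, called, with the correction).

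Translation genes showed no common direction. Of 23 translation factor genes, 8 rose and 10 fell (3 and 8 with the GC correction; median -0.01). Eif4g1 (-1.28 ± 0.09), the scaffold of the cap-binding complex, had one of the larger decreases. Of 27 cytosolic ribosomal protein genes, 13 rose and 8 fell (9 and 6; median 0.06), and their counts are uncertain, since these genes have many near-identical copies in the genome and how reads with several matches were counted is not stated.

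**Figure D3:**
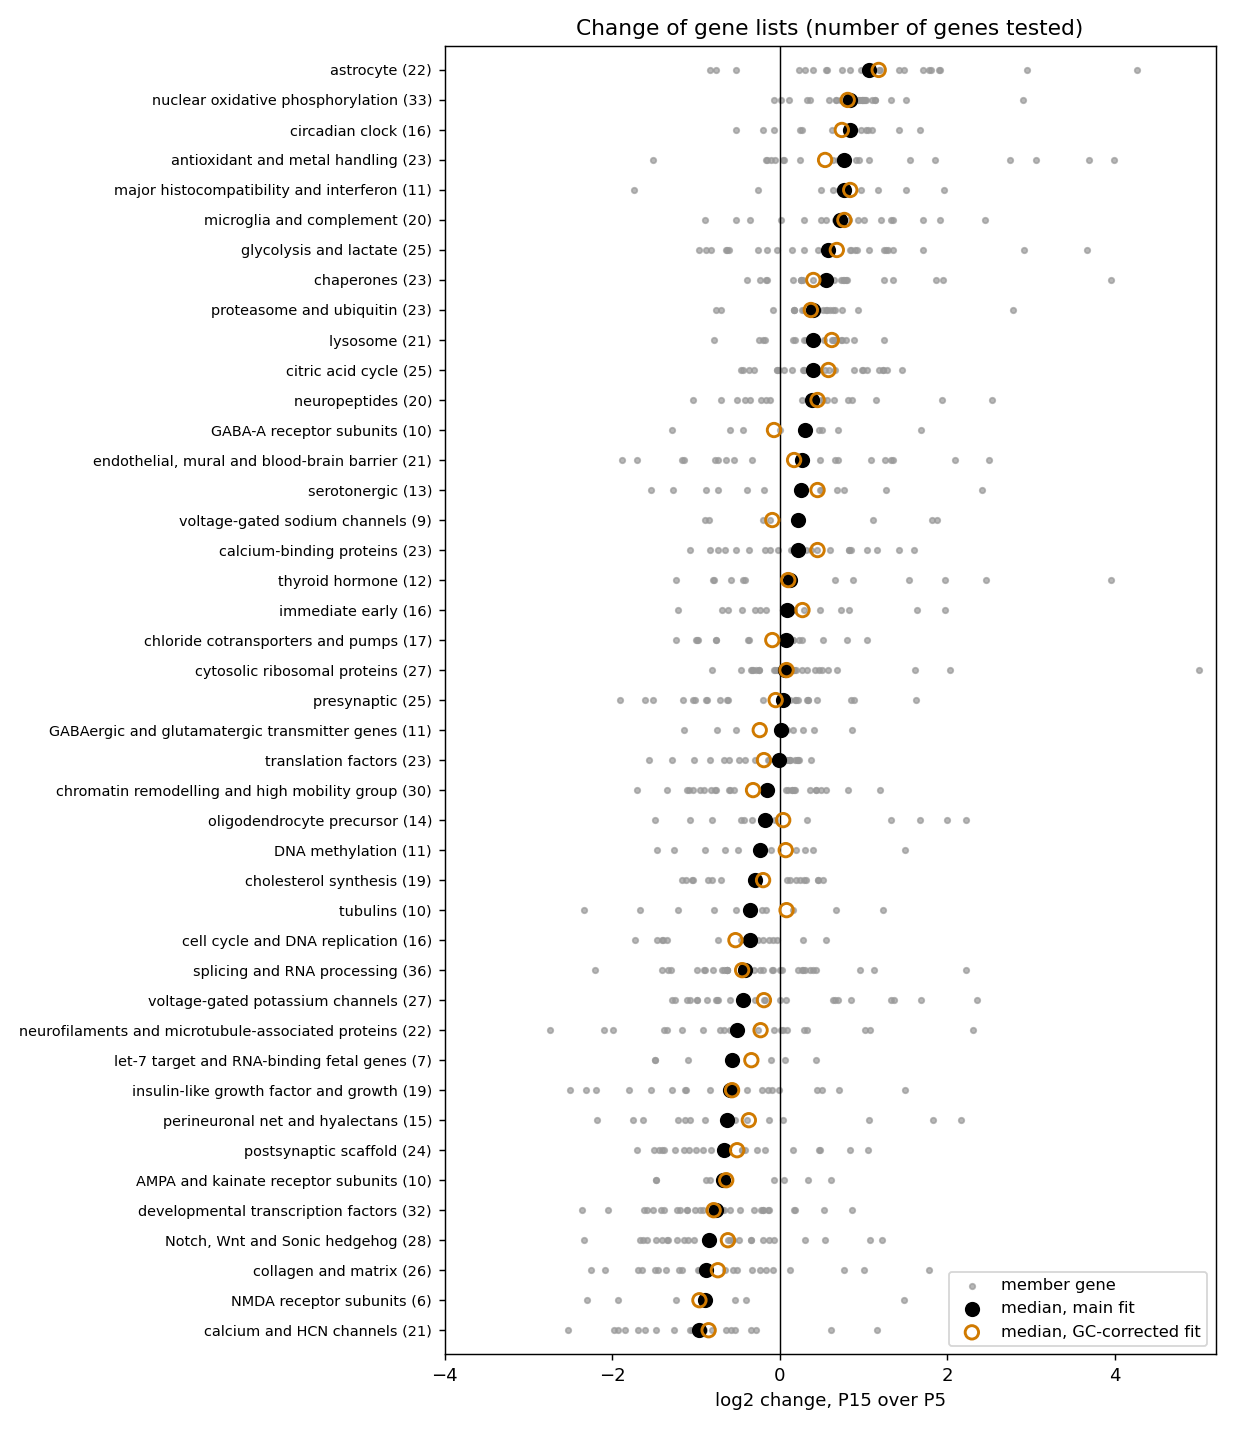
Log2 change (P15 over P5) of the member genes of most lists (grey points; those of myelin, immature neurons, glycine receptors, blood, meninges, ependyma and neighbouring regions are not drawn), their median (black) and the median after the GC correction (orange circles), ordered by the median; the number of genes tested is in parentheses. Medians of the lists drawn run from 1.07 for the astrocyte list to -0.97 for the calcium and HCN channel list.

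Tubulin genes moved in both directions. Of 10, 3 rose and 6 fell (3 and 4 with the GC correction). The beta-tubulin gene Tubb2b ranged from 97.8 to 159.8 CPM at P15 and from 520.6 to 704.1 CPM at P5 (-2.34 ± 0.06). Tubb5 (-1.67 ± 0.06), Tubb3 (-1.21 ± 0.04) and Tubb2a (-0.79 ± 0.04), other beta-tubulin genes, fell as well. Tuba4a (1.23 ± 0.04) and Tubb4a (0.67 ± 0.05) rose without overlap of the ages, and Tubb4b changed by 0.16 ± 0.04. The estimates of the gamma-tubulin genes Tubg1 (-0.21 ± 0.05, and 0.24 with the correction, called in both) and Tubg2 (-0.52 ± 0.06, and -0.07, not called, with the correction) differed between the fits. Tubb6 had a value of -0.16 ± 0.11.

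Of 22 genes of neurofilaments, microtubule-associated proteins and kinesins, 5 rose and 13 fell (5 and 10 with the GC correction). The median was -0.51, and -0.23 with the GC correction, -0.04 when length was corrected too and -0.18 in the 5 P15 libraries with the shallower GC trend. The kinesin gene Kif21b ranged from 62.5 to 112.6 CPM at P15 and from 485.5 to 588.3 CPM at P5 (-2.75 ± 0.07), and the tau gene Mapt changed by -1.99 ± 0.09. Among neurofilament genes, Nefh, the heavy subunit of mature axons, rose (0.28 ± 0.08), Ina, the early subunit, fell (-0.92 ± 0.07), and Nefl had a value of 0.04 ± 0.07. Tppp, a microtubule protein of oligodendrocytes, rose (2.30 ± 0.05).

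Sodium channel genes moved in both directions, as did genes in general (43.8% of all tested higher and 42.8% lower). Of 9 sodium channel genes, 5 rose and 4 fell (4 and 4 with the GC correction). Among pore-forming subunits, Scn1a ranged from 120.2 to 219.8 CPM at P15 and from 71.1 to 88.6 CPM at P5 (1.11 ± 0.06). Scn3a, the form of immature neurons, ranged from 119.5 to 167.6 CPM at P15 and from 258.3 to 295.6 CPM at P5 (-0.90 ± 0.04), so that both separated the ages in opposite directions. Scn2a (-0.11 ± 0.04) and Scn8a (-0.20 ± 0.07) changed little, and Scn9a rose (0.25 ± 0.05) only without the GC correction (-0.09, not called). Of the auxiliary subunits, Scn2b (1.88 ± 0.11) and Scn4b (1.82 ± 0.11) rose and Scn3b (-0.85 ± 0.03) fell.

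Among 27 potassium channel genes, 8 rose and 16 fell (8 and 14 with the GC correction). The median was -0.44, and -0.19 with the GC correction, -0.05 when length was corrected too and -0.05 in the 5 P15 libraries with the shallower GC trend. Kcna1, which sets the threshold of axons, ranged from 69.3 to 105.5 CPM at P15 and from 13.4 to 21.0 CPM at P5 (2.36 ± 0.07). Kcnc2, a channel of fast-spiking neurons, changed by 1.33 ± 0.05, and the auxiliary subunit gene Kcnab1 by 1.68 ± 0.08. The M-current genes Kcnq3 (-1.28 ± 0.07) and Kcnq5 (-0.87 ± 0.07) fell, as did Kcnd2 (-1.07 ± 0.03), a channel of the A-type current.

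Calcium and HCN channel genes had the lowest median among the lists drawn, -0.97, with 2 of 21 higher and 19 lower (2 and 16 with the GC correction). Hcn4, a pacemaker channel, ranged from 3.55 to 12.1 CPM at P15 and from 36.6 to 45.6 CPM at P5 (-2.53 ± 0.12). The T-type channel genes Cacna1h (-1.98 ± 0.08; -1.32 with the correction) and Cacna1g (-1.48 ± 0.06) fell, and so did Cacna1b (-1.07 ± 0.06), the N-type channel of synapses. The 2 that rose were the auxiliary subunit genes Cacnb4 (1.16 ± 0.06) and Cacnb2 (0.61 ± 0.04). Hcn2 was called lower at -0.53 ± 0.11 and higher at 0.52 with the correction. Many genes of this list are rich in GC, with a median of 54.6% against 49.8% over all genes.

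Of 6 NMDA receptor genes, 1 rose and 5 fell (1 and 4 with the GC correction). Grin2b, the subunit of immature synapses, ranged from 2.71 to 11.7 CPM at P15 and from 15.9 to 22.4 CPM at P5 (-1.93 ± 0.12). Grin2d (-2.31 ± 0.09; -1.27 with the correction) and Grin3a (-1.24 ± 0.04), also juvenile subunits, fell, and Grin2a was slightly lower (-0.40 ± 0.09). Grin2c ranged from 10.47 to 26.4 CPM at P15 and from 4.69 to 7.71 CPM at P5 and was the only one to rise (1.48 ± 0.11; 2.30 with the correction). Grin1, the obligatory subunit, fell by 0.54 on the log2 scale, but had a value of 0.09, not called, with the correction. Of 10 AMPA, kainate and delta receptor genes, 2 rose and 6 fell (1 and 6), with Gria4 at 0.61 ± 0.05, Grik3 at -1.48 ± 0.10 and Grik5 at -1.48 ± 0.08 (-0.70 with the correction).

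Of 10 GABA-A receptor genes, 6 rose and 3 fell, but only 3 and 3 with the GC correction, and the median was 0.30, or -0.07 with the correction. Gabra5, an extrasynaptic subunit prominent in development, ranged from 34.2 to 68.4 CPM at P15 and from 115.0 to 133.2 CPM at P5 (-1.29 ± 0.06). Gabrb2 (0.47 ± 0.05) rose in both fits, by 0.19 with the correction, and Gabrg3 (-0.60 ± 0.03) fell in both. The rises of Gabra4 (0.27 ± 0.06), Gabrb1 (0.32 ± 0.06) and Gabrg1 (0.51 ± 0.05) were lost with the correction (-0.08, -0.06 and -0.01). Gabra2 had a value of 0.00 ± 0.04, and -0.45, called, with the correction. All 3 glycine receptor subunit genes tested rose, Glra1 (0.82 ± 0.10), Glrb (0.88 ± 0.05) and Glra3 (1.22 ± 0.14), while the scaffold gene Gphn had a value of -0.08 ± 0.06. With the GC correction the same 3 rose and Gphn was called lower. In the 5 P15 libraries with the shallower GC trend, 2 of these 4 genes were called higher and 1 lower.

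**Figure D4:**
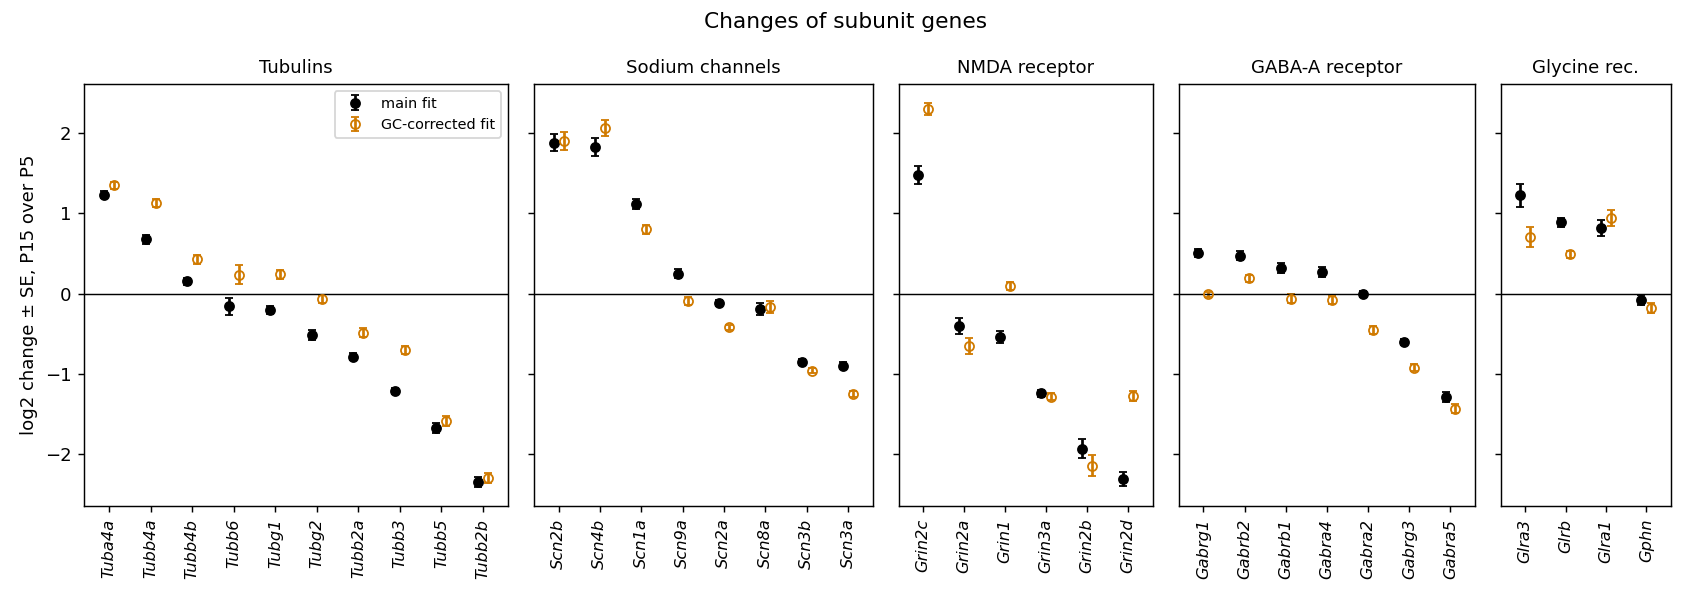
Log2 change (P15 over P5) ± SE of tubulin, sodium channel, NMDA, GABA-A and glycine receptor genes, with gephyrin (Gphn) beside the glycine receptor; black points are without and open orange points with the GC correction. In the first 4 panels members lie on either side of 0, as Gabrb2 at 0.47 and Gabra5 at -1.29, and the glycine receptor subunits lie above it.

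Of 17 chloride cotransporter and ion pump genes, 6 rose and 8 fell (4 and 8 with the GC correction). Slc12a5, the neuronal chloride extruder KCC2, ranged from 205.1 to 486.9 CPM at P15 and from 701.0 to 791.6 CPM at P5 (-1.25 ± 0.11; -0.72 with the correction, -0.81 in the 5 P15 libraries with the shallower GC trend). Slc12a2, the chloride importer NKCC1, changed by 0.80 ± 0.05.

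Presynaptic genes were divided much as all genes tested, of which 43.8% rose and 42.8% fell. Of 25, 11 were higher and 11 lower (8 and 11 with the GC correction, with a median of 0.04 without it). Vamp1, a vesicle protein of fast brainstem synapses, ranged from 474.8 to 719.0 CPM at P15 and from 163.0 to 235.8 CPM at P5 (1.63 ± 0.06). The related Vamp2 fell (-0.63 ± 0.10), as did Doc2b (-1.91 ± 0.11), Syn3 (-1.61 ± 0.07) and Stx1a (-1.51 ± 0.04), genes of vesicle release. Postsynaptic scaffold and adhesion genes mostly fell, 5 of 24 being higher and 19 lower (5 and 17; median -0.67, and -0.51 with the correction). Nrxn2 (-1.70 ± 0.12; -0.88), Nlgn2 (-1.51 ± 0.11; -0.80), Dlgap3 (-1.40 ± 0.10; -0.45) and Shank3 (-1.14 ± 0.07; -0.29) were smaller changes with the correction, the second value in each case. Dlg1 rose (1.05 ± 0.05).

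Genes of serotonin synthesis rose, and transcription factors of serotonin neurons did not. Tph2, the rate-limiting enzyme of serotonin synthesis in the brain, ranged from 399.9 to 790.9 CPM (median 564.5) at P15 and from 82.5 to 135.9 CPM (median 105.2) at P5. All P15 animals lay above all P5 animals, with a change of 2.42 ± 0.08 (adjusted p = 7e-24). Ddc, the decarboxylase that completes the synthesis, changed by 1.26 ± 0.07, Gch1, which makes the cofactor of Tph2, by 0.77 ± 0.07, the transporter gene Slc6a4 by 0.68 ± 0.08 and the autoreceptor gene Htr1a by 0.50 ± 0.07. For Slc6a4 the ages overlapped, with 193.6 to 355.2 CPM at P15 and 143.0 to 221.1 CPM at P5. Gata3 ranged from 8.41 to 20.8 CPM at P15 and from 25.7 to 36.1 CPM at P5 (-1.27 ± 0.10). En2 (-1.54 ± 0.07), En1 (-0.74 ± 0.12) and Lmx1b (-0.88 ± 0.14), which specify these neurons, fell. Fev, their terminal selector, was called lower at -0.39 ± 0.14 (adjusted p = 0.0097), but higher at 0.49 with the GC correction and had a value of 0.02, not called, in the 5 P15 libraries with the shallower GC trend. In all, 6 of 13 serotonergic genes rose and 6 fell (6 and 5 with the correction).

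Of 20 neuropeptide and granin genes, 12 rose and 6 fell (10 and 2 with the GC correction). The median was 0.38, and 0.45 with the GC correction, but -0.03 when length was corrected too. Vip ranged from 15.5 to 46.8 CPM at P15 and from 2.97 to 7.94 CPM at P5 (2.53 ± 0.14). Trh (1.14 ± 0.08) and Penk (0.82 ± 0.07), which encode thyrotropin-releasing hormone and enkephalin, rose, and Pdyn, which encodes dynorphin, fell (-0.70 ± 0.05). Of 11 GABA and glutamate transmitter genes, 4 rose and 3 fell (3 and 3). Abat, the enzyme that breaks down GABA, changed by 0.87 ± 0.03 and the synthesis genes Gad2 and Gad1 by 0.41 ± 0.06 and 0.27 ± 0.06, whereas the vesicular transporter gene Slc32a1 fell by 1.15 (by 0.36 with the correction). The glutamate transporter genes Slc17a6 and Slc17a8 had values of 0.09 ± 0.09 and -0.02 ± 0.07, and were called lower with the correction at -0.24 and -0.30.

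Calcium-binding protein genes included 13 of 23 that rose and 8 that fell (11 and 6 with the GC correction; median 0.22, and 0.03 with GC content and length corrected). Pvalb (1.598 ± 0.10) and Calb1 (1.04 ± 0.08), buffers of distinct neuron classes, rose, and the kinase gene Camk4 fell (-1.07 ± 0.04). Of 16 immediate early genes, 6 rose and 6 fell (6 and 4). Fos ranged from 13.2 to 26.5 CPM at P15 and from 3.13 to 7.82 CPM at P5 (1.97 ± 0.12), and Egr1 changed by 1.64 ± 0.17. Jund fell by 1.21, and its value was -0.04, not called, with the correction.

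Markers of neighbouring regions and other tissues were read beside these results. The forebrain list summed to 2.06 to 5.85 CPM at P15 and 9.38 to 18.9 CPM at P5, and 1 of its genes, Six3, was abundant enough to test (-2.82 ± 0.22). The cerebellar list summed to 127 to 165 CPM at P15 and 177 to 201 CPM at P5. Catecholamine genes, shared with adjacent dopamine and noradrenaline neurons, summed to 276 to 377 CPM at P15 and 91.8 to 126 CPM at P5, with Aldh1a1 at 2.79 ± 0.06, while Slc6a3, the dopamine transporter, had a value of -0.04 ± 0.11. Cranial motor neuron genes summed to 209 to 363 CPM at P15 and 111 to 175 CPM at P5, with Chat at 1.61 ± 0.10. The ependymal and choroid plexus list summed to 363 to 721 CPM at P15 and 386 to 470 CPM at P5, with 7 of 12 genes higher and 2 lower (5 and 1), and Ttr ranged from 1.98 to 160.3 CPM at P15 and from 0.749 to 46.7 CPM at P5. The blood list, of whose 14 names only 5 were measured, summed to 266 to 356 CPM at P15 and 102 to 138 CPM at P5. All 4 of its genes tested rose, namely the globin genes Hbb-bs and Hbb-bt, Slc25a37 and Car2. Slc25a37 and Car2 are not globin genes, and the source of the rise was not tested. The summed levels of the forebrain, cerebellar, catecholamine, motor neuron and blood lists thus did not overlap between the ages. The meninges and fibroblast list did not overlap either, with 171 to 683 CPM at P15 and 71.1 to 110 CPM at P5. Nor did the serotonergic list, with 1206 to 1964 CPM at P15 and 705 to 948 CPM at P5, though 6 of its genes tested rose and 6 fell. The oligodendrocyte precursor list was also apart, with 2202 to 2749 CPM at P15 and 1905 to 2097 CPM at P5. Such separation was common, as 44.5% of single genes tested did not overlap between the ages. The part of these lists in the changes above was not tested.

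The age change hardly differed between the crosses. The test of the difference itself called 2 of 11724 genes (0.0171%), while 328 had an unadjusted p below 0.05 and DESeq2 called 3. Both genes called, Gm13341 and Gm13340, are predicted genes with counts almost only in F1i. Their counts reached 0.502% and 1.89% of a library's total. How reads with several matches were counted is not stated, and the origin of the reads given to these 2 genes was not tested. Gm13341 averaged 4219 CPM in P15 F1i, 7.81 CPM in P15 F1r, 1872 CPM in P5 F1i and 0.246 CPM in P5 F1r, and its log2 change in F1i minus that in F1r was -3.39 ± 0.51 (adjusted p = 0.0024). For Gm13340 the difference was -2.05 ± 0.37 (adjusted p = 0.021). In both genes the larger log2 change belongs to F1r, where the counts at P5 were close to 0.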

How the data were processed

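Dorsal raphe RNA of female C57 and CAST hybrid mice was sequenced as 50 bp single-end reads after Qiagen RNAeasy extraction and an Illumina TruSeq preparation, per the labels' protocols. Novoalign and the mm9 genome are named in the submitters' processing notes. The deposited values are raw counts per gene and allele, with no normalization in the files; how reads were assigned to alleles, whether strand was used and how reads with several matches were counted are not given in the sources used here. All 92 value columns were used, and the deposited counts of both alleles were summed per sample. Totals per library ranged from 3692778 to 10319139, and values of genes with few counts are the least precise.

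The 28 P15 and P5 animals were fitted with edgeR 4.0.16 (R 4.3.3), trimmed mean of M values scaling and a quasi-likelihood test with cross as covariate. All 12394 genes with a mean count of at least 20 at either age entered the fit and the Benjamini-Hochberg adjustment, of which 11724 were autosomal, 409 X-linked and 261 without annotation. CPM are the summed counts scaled to a common library size. Levels were not compared between genes. Nothing in the labels says that animals came from separate litters, so p-values measure the spread between these samples. No library pair agreed within sampling noise. Symbols, chromosomes, GC content and length came from GENCODE vM21, since no mm9 annotation was used, and promoters from RefSeq GRCm38.p6. The GC correction removed, per library, a lowess curve (span 0.3) of log count on GC content as an offset.

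Members and lists were chosen with earlier results of these data known, and list counts carry no test. Genes named are the 12 largest changes in each direction outside the myelin and immature neuron lists (called, at least 10 CPM at either age, no overlap), list members, and the genes that differ between crosses; some genes that this rule selects are not reported here. Alternatives covered scaling, filters, DESeq2 1.42.0, replicate block, GC and length, single crosses and alleles, and subsets of libraries.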

Additional observations from a re-analysis of the deposited data

Results flagged for a closer look

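In 3 of the 4 groups, replicate 7 had a total count set apart from the other 6 animals by more of the group's range than Dixon's 95% critical value of 0.568. The totals were 8032987 in P15 F1r (next highest 5171063), 10319139 in P5 F1i (next highest 6521001) and 7544469 in P5 F1r (next highest 6224999). P15 F1r replicate 3 stood apart in the summed level of the meninges and fibroblast list, with 683 CPM against a next highest of 256 CPM, and in that of the catecholamine list, with 276 CPM against a next lowest of 350 CPM. Of 60 such groups examined, 5 were set apart, and chance gives about 1 in 20. The age change differed between the crosses for Gm13341, by -3.39 on the log2 scale (F1i minus F1r), and for Gm13340, by -2.05, both past an adjusted p of 0.05 in edgeR's test of the difference.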

How the results depend on the processing

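Of the 236 genes named by rule, 236 kept direction and call with DESeq2, with relative log expression scaling, with library totals and under the replicate block. The GC correction left 225 so, and 7 reversed. Apart from the test of a fold above 1.5, which called 1842 genes higher and 2196 lower, the number higher ranged from 4546 (CAST allele) to 5637 (no count filter); DESeq2 called 5054 higher and 5075 lower. Correcting GC content and length together, chosen after seeing the data like the subsets of P15 libraries by GC trend, left 783 genes lower by 2-fold or more. With dominant genes left out, 0 genes differed between crosses, because both that had were among those left out (2 in edgeR and 3 in DESeq2 otherwise). Direction reversed with the GC correction, alone and with the replicate block, for Tubg1 (0.24), Scn9a (-0.09), Grin1 (0.09), Gabra4 (-0.08 and -0.09), Gabrb1 (-0.06 and -0.07), Gabrg1 (-0.01) and Prph (0.27). Tubb6 had 0.24 in both and was called only with the block. List members given as examples beyond the rule were called in the opposite direction for Hcn2 (0.52), Fev (0.49), Bcan (0.33), Cry2 (0.12) and Tcf4 (-0.21) with the GC correction. It reversed with the GC and length correction for Scn8a (0.16), Grin1 (0.17), Gabra4 (-0.02) and Tmem212 (-0.01), in the P15 libraries with the shallower trend for Scn8a (0.06) and on the C57 allele for Gabra2 (0.29). The cause was not tested. The replicate block called 5097 genes higher and 5023 lower, 896 and 1258 by 2-fold or more; same-numbered animals correlated between -0.107 and 0.104 and 1 of 14 matched its own number best, so the numbers were not taken as pairs.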
